A study of Mus musculus with 27 samples.

Results

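Galectins and annexins were followed in microglia, the resident macrophages of the brain, after intracerebral hemorrhage (ICH). The 9 genes were taken by name, with earlier results of these data known: Lgals1, Lgals3, Lgals9 and Lgals3bp, and Anxa1, Anxa2, Anxa3, Anxa4 and Anxa5. They are 9 of 56691 gene identifiers in the count table, and all 9 were among the 17573 genes that passed the filter on low counts. Microglia had been flow-sorted from tissue around the hematoma of wild-type (WT) mice, in 9 groups of 3 libraries. Mice received an antibiotic cocktail (ABX), were germ free (GF), or had neither and were specific pathogen free (SPF). In each condition there were 3 groups: ICH induced with collagenase, which digests vessel walls, at day 3, the same at day 7, and a sham given PBS and labelled day 7. Comparisons of ICH day 3 with sham therefore also differ in day. Age, sex, strain and the animals behind each library are not stated in the sources used here, so p-values measure the spread between these libraries, which may be technical.

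Galectins are small lectins that bind galactose-containing sugars on cell-surface and secreted proteins. They can act outside the cell, by crosslinking receptors, and inside it, where galectin-3 gathers on damaged lysosomes. Annexins are cytosolic proteins that bind acidic phospholipids when calcium rises, and they serve in membrane repair, vesicle traffic and the removal of dying cells. Both families are expressed by macrophages, and Lgals3 is a common marker of activated microglia.

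Promoter sequence was available for 7 of the 9 genes, in RefSeq windows on GRCm38.p6 that hold 250 bases before the annotated start. Each window was searched on both strands for 3 motifs of transcription factors active in macrophages: AP-1 (TGANTCA), the interferon-stimulated response element and PU.1 (GAGGAA). Over 27025 promoters of the same length, 6.87% held the AP-1 letters, 3.04% those of the interferon element and 23.1% those of PU.1. The windows of Lgals3, Anxa2 and Lgals9 are shown because the first pair were high at both days, Anxa2 from a near-zero sham level, and Lgals9 was low at day 7 in GF mice. Each is printed 5′ to 3′ up to the first base that GENCODE M21 annotates as an exon of the gene, with motif matches in capitals. They lie at chr14:47373610-47373812 (plus strand), chr9:69453433-69453619 (plus strand) and chr11:78984947-78985174 (minus strand).
Lgals3: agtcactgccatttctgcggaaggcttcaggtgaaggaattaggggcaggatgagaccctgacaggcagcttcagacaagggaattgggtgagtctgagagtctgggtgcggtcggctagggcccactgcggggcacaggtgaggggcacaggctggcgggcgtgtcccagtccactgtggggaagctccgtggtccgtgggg
Anxa2: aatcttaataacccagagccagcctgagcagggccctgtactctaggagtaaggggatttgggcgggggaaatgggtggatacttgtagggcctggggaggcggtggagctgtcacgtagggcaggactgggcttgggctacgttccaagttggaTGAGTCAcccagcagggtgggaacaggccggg
Lgals9: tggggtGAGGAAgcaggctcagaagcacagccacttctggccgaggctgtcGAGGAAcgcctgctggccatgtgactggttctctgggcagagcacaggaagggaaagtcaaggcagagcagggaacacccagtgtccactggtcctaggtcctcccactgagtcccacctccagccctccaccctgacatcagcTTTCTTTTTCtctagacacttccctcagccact
The Anxa2 window held 1 AP-1 match, starting 95 bases before the RefSeq start. The Lgals9 window held 1 match to the interferon element, at 55 bases on the reverse strand, and 2 to PU.1, at 244 and 199 bases. The Lgals3 window held none of the 3 motifs, nor did those of Lgals3bp, Anxa4 and Anxa5, and that of Anxa1, all 250 bases of which are annotated as exon, held 1 PU.1 match at 227 bases. No matches overlapped, and a match describes letters in the window, not binding. Gene spans given with each gene are those of GENCODE M21 on GRCm38, and the windows of Lgals3 and Anxa1 and 1 of the 2 of Anxa4 lie inside their genes' spans.

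Levels are given as CPM, counts scaled to library size with TMM factors, and log2 fold changes ± SE come from 1 quasi-likelihood fit of edgeR over all 27 libraries, adjusted over 17573 genes at 0.05. The libraries hold 41664864 to 79090595 counts, but from 9185 to 18408 detected genes, and 7 had under 12000. These were the whole GF ICH day 7 group, ABX ICH day 7 libraries 1 and 2, and GF sham libraries 1 and 2. Those 7 stand apart, and results that rest on them are also given without them where a library is left in each group. Microglial markers were present in every library, with a summed level over 10 genes of 21300 to 48970 CPM in the 9 ICH day 3 libraries, 33780 to 113700 CPM in the 9 ICH day 7 libraries and 43280 to 99110 CPM in the 9 shams. Monocyte markers (8 genes) summed to 481 to 1877 CPM in GF ICH day 7 and 14.9 to 814 CPM in ABX ICH day 7, against 25.9 to 128 CPM in SPF ICH day 7 and 4.95 to 615 CPM in the 9 shams. Apart from GF sham replicate 1, at 615 CPM, the shams held 4.95 to 39.3 CPM. Neutrophil markers (9 genes) summed to 920 to 3573 CPM in GF ICH day 7, where Mmp9 was at 0, and to 42.9 to 895 CPM in the 9 shams, where Ly6g was at 0. Their part in the results was not tested. In RNA pooled over many cells, fewer cells of a type and less RNA per cell cannot be told apart.

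Averaged over ABX, GF and SPF mice, 3 of the 9 genes rose at ICH day 3 against sham (Lgals1, Lgals3 and Anxa2), where 1.3% of all genes passed in either direction, 1.04% higher and 0.267% lower. At ICH day 7, 7 of the 9 rose (Lgals1, Lgals3, Anxa1, Anxa2, Anxa3, Anxa4 and Anxa5), where 20.2% passed, most of them lower: 3.72% of all genes were called higher and 16.5% lower. The median log2 fold change of the 9 was 1.69 at day 3, against −0.06 over all genes, and 2.05 at day 7, against −1.24 over all genes. None of the 9 fell in either comparison. The day 7 value averages 3 groups of which GF had the fewest detected genes. Over ABX and SPF mice alone, 3 of the 9 passed at day 7: Lgals3, Anxa2 and Anxa5.

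Markers of microglia and of other cells moved at day 3 together with these genes. Of the 10 microglial markers 4 fell and none rose, with a list median of −0.84 log2 units against −0.06 over all genes. Border-associated macrophage markers (8 genes) summed to 31.9 to 178 CPM in the 9 ICH day 3 libraries, against 0.757 to 22.1 CPM in the 9 shams, where Lyve1 was at 0. These ranges did not overlap and the list median was 4.52, though edgeR called 0 of the 7 tested, with 5 at an unadjusted p under 0.05, 4 by DESeq2 and 2 by limma voom. Dendritic cell markers (6 genes) summed to 23.2 to 123 CPM, and 3 of the 6 rose (Ccr7, Cd209a and Flt3). In sham, with Clec9a at 0, they summed to 1.62 to 19.3 CPM apart from GF replicate 2, at 55.5 CPM. Monocyte markers summed to 41.9 to 217 CPM, and 2 of the 8 rose (Ccr2 and Fn1). In sham they summed to 4.95 to 39.3 CPM apart from GF replicate 1, at 615 CPM. Outside those libraries, every ICH day 3 library lay above every sham library for both lists. At day 7 border-associated macrophage markers summed to 1.66 to 214 CPM, and 3 of the 7 tested rose. Astrocyte markers (6 genes) summed to 60.7 to 139 CPM at day 3, against 180 to 403 CPM in sham, and 1 of the 6 fell. The part of these cells in the galectin and annexin levels was not tested.

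**Figure D1:**
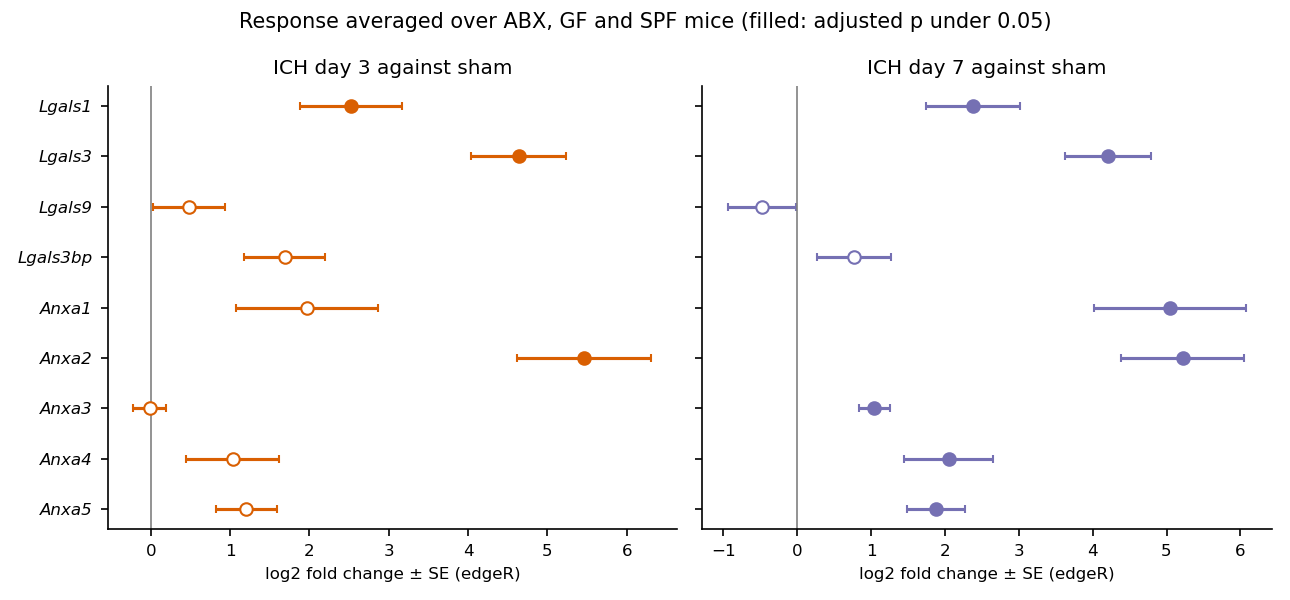
Log2 fold change ± SE of each gene (x axis, edgeR) at ICH day 3 (left) and ICH day 7 (right) against sham, averaged over ABX, GF and SPF mice; filled points passed an adjusted p of 0.05. Lgals3 and Anxa2 lie above 4 in both panels, whereas Anxa3 is at −0.01 at day 3 and 1.04 at day 7.

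Lgals3 encodes galectin-3, which binds TREM2 on the microglial surface and marks ruptured lysosomes (ENSMUSG00000050335, chr14:47367751-47386160, plus strand). Its level ran from 141 to 802 CPM in the 9 ICH day 3 libraries, with a median of 309 CPM, and from 81.6 to 418 CPM in the 9 ICH day 7 libraries, with a median of 257 CPM. The 9 sham libraries held 2.50 to 39.9 CPM, with a median of 7.89 CPM. Every ICH library at either day lay above every sham library, a separation that 1.09% of all genes showed upward at day 3 and 0.211% at day 7 (0.0285% downward at day 7). Lgals3 was 4.64 ± 0.60 log2 units higher at day 3 (edgeR adjusted p = 5.5e-05) and 4.21 ± 0.59 higher at day 7 (edgeR adjusted p = 6.1e-05). By condition, ICH day 3 libraries held 180, 306 and 359 CPM in ABX mice, 331, 802 and 605 CPM in GF mice, and 255, 141 and 309 CPM in SPF mice. All 3 GF libraries lay above all 3 SPF libraries and overlapped with those of ABX mice. Over all genes, 8.22% were separated upward and 5.44% downward between GF and SPF mice at day 3. The test of GF against SPF mice at day 3 did not pass, at 1.303 ± 0.906 log2 units (edgeR adjusted p = 1.0).

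Lgals1 encodes galectin-1, a dimeric lectin with anti-inflammatory actions on T cells and myeloid cells (ENSMUSG00000068220, chr15:78926725-78930465, plus strand). ICH day 3 libraries held 47.3 to 306 CPM, with a median of 141 CPM, and ICH day 7 libraries 6.83 to 297.5 CPM, with a median of 132 CPM. Sham libraries held 4.67 to 78.6 CPM, with a median of 16.7 CPM. The groups overlapped at both days: the lowest ICH day 7 library was ABX replicate 1 and the highest sham library GF replicate 3. Lgals1 was 2.53 ± 0.64 log2 units higher at day 3 (edgeR adjusted p = 0.0486) and 2.38 ± 0.64 higher at day 7 (edgeR adjusted p = 0.0139). The day 3 call was at the threshold. It ended with the replicate block, at 2.51 (edgeR adjusted p = 0.0669), with no filter on low counts (edgeR adjusted p = 0.0518), with offsets for GC content, at 2.29 (edgeR adjusted p = 0.0837), and over ABX and SPF mice alone, at 2.71 (edgeR adjusted p = 0.142). It also ended when any 1 of 17 of the 18 libraries was left out (highest edgeR adjusted p = 0.133) and held without GF sham replicate 3, at 3.40 log2 units (edgeR adjusted p = 0.00474). The day 7 call ended over ABX and SPF mice alone, at 2.21 log2 units (edgeR adjusted p = 0.192).

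Anxa2 encodes annexin A2, which organises membrane and actin at the cell surface and binds plasminogen (ENSMUSG00000032231, chr9:69453620-69491795, plus strand). It held 110.5 to 348 CPM in the 9 ICH day 3 libraries, with a median of 167 CPM, against 0.957 to 9.21 CPM in the 9 sham libraries, with a median of 2.80 CPM. At day 3 the groups did not overlap, as for 1.09% of all genes upward, and the gap was wide. Anxa2 was 5.46 ± 0.84 log2 units higher at day 3 (edgeR adjusted p = 0.000508) and 5.22 ± 0.83 higher at day 7 (edgeR adjusted p = 0.000297). At day 7 its level was 4.03, 291 and 487 CPM in ABX mice, 259, 57.3 and 1.11 CPM in GF mice, and 188.5, 42.4 and 134 CPM in SPF mice. The values of ABX replicate 1 and GF replicate 3 fell within the sham range, and the other 7 lay above it. Both are libraries with under 12000 detected genes. With Lgals3, Anxa2 kept its call at both days under every alternative that gave a value, and when any 1 library was left out its day 3 value stayed between 5.30 and 5.83 log2 units.

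Annexin A2 is usually bound to S100A10, a small protein that in turn is stabilised by it. S100a10 averaged 10.9 ± 5.94 CPM in ICH day 3, 25.9 ± 35.1 CPM in ICH day 7 and 15.2 ± 10.3 CPM in sham libraries (SD, n = 9 each). It did not pass at day 3, at −0.55 ± 0.69 log2 units (edgeR adjusted p = 0.974), or at day 7, at −0.23 ± 0.69 log2 units (edgeR adjusted p = 0.96). Other S100 genes whose proteins bind annexins were called. S100a4 was 4.88 ± 1.00 log2 units higher at day 3 (edgeR adjusted p = 0.0117) and 5.86 ± 1.04 higher at day 7 (edgeR adjusted p = 0.00079). S100a6, at 3.88 ± 0.86, and S100a11, at 3.20 ± 0.75, were higher at day 7 (edgeR adjusted p = 0.00428 and 0.00641), though S100a6 did not pass over ABX and SPF mice alone (edgeR adjusted p = 0.14). Of the list of 5 annexin partners, which also holds the scaffold Ahnak, 1 rose at day 3, where 1.04% of all genes were called higher, and 3 at day 7, where 3.72% were, and none fell. The day 3 call of S100a4 ended without the 7 libraries with few detected genes, at 4.71 log2 units (edgeR adjusted p = 0.0818), over ABX and SPF mice alone (edgeR adjusted p = 0.0579), and without any 1 of ABX sham replicate 1, ABX sham replicate 2 or SPF sham replicate 2 (highest edgeR adjusted p = 0.0549).

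**Figure D2:**
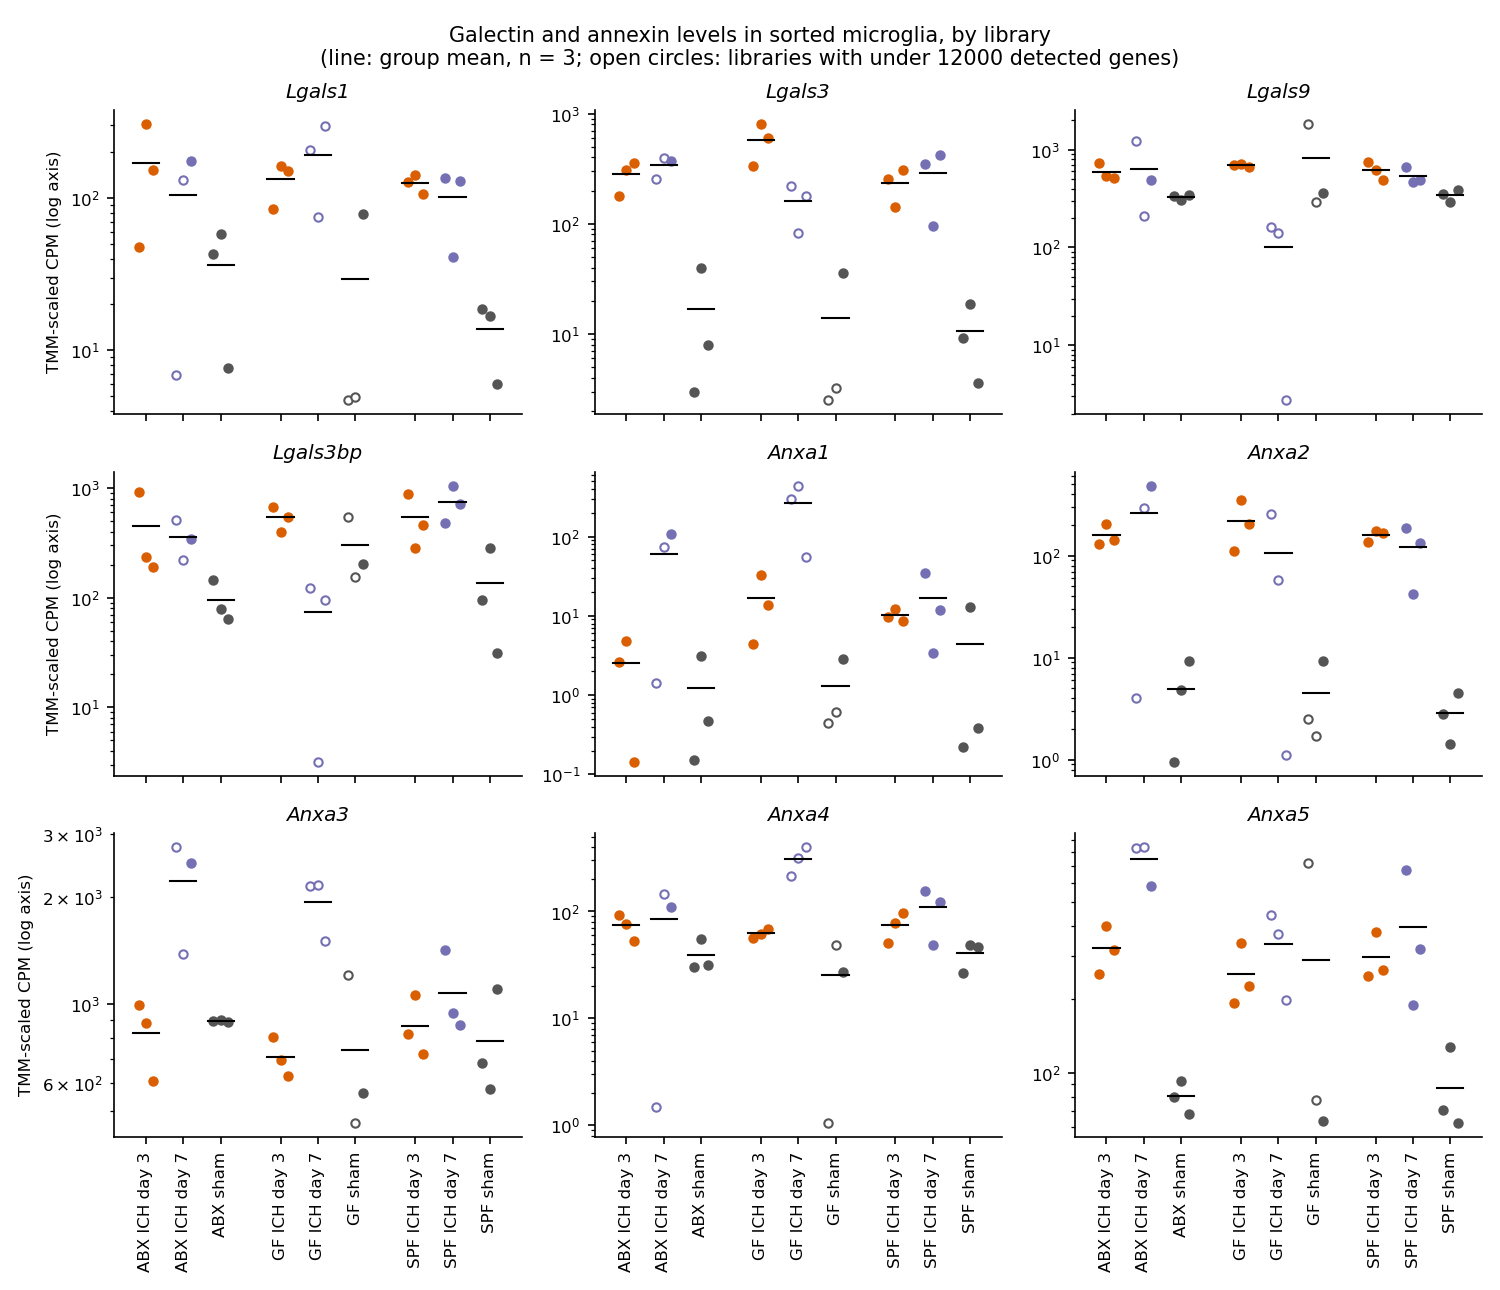
TMM-scaled CPM (log axis) of each gene in the 27 libraries, by condition and time; lines are group means of 3 libraries and open circles are the 7 libraries with under 12000 detected genes. Lgals3 stands above sham in every ICH library, and the lowest ICH day 7 values of Anxa2, Anxa4, Lgals9 and Lgals3bp are open circles.

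Anxa1 encodes annexin A1, a glucocorticoid-induced protein that acts through formyl peptide receptors to limit leukocyte recruitment (ENSMUSG00000024659, chr19:20373428-20390944, minus strand). It had the lowest mean of the 9 per kilobase in sham, at 0.151 to 12.8 CPM with a median of 0.471 CPM over 9 libraries. At day 7 it held 1.42, 73.2 and 107 CPM in ABX mice, 294, 439 and 55.1 CPM in GF mice, and 34.6, 3.39 and 11.9 CPM in SPF mice. All 3 GF libraries lay above all 3 SPF libraries, a separation that 7.19% of all genes showed upward and 24.4% downward. At day 3 the 9 ICH libraries held 0.144 to 32.4 CPM and overlapped with sham, and Anxa1 did not pass, at 1.97 ± 0.90 log2 units (edgeR adjusted p = 0.359). At day 7 it was 5.05 ± 1.03 log2 units higher than in sham (edgeR adjusted p = 0.00248), and 3.75 over ABX and SPF mice alone, where the call ended (edgeR adjusted p = 0.157). Within GF mice Anxa1 was 7.65 ± 2.01 log2 units higher at day 7 than in sham (edgeR adjusted p = 0.0132), a call that ended without GF sham replicate 2 (edgeR adjusted p = 0.0518). The tested difference between GF and SPF mice in this response, 5.75 ± 2.28 log2 units, did not pass (edgeR adjusted p = 0.118). ICH day 7 was 3.08 ± 0.94 log2 units above ICH day 3 (edgeR adjusted p = 0.0262). That call ended over ABX and SPF mice alone (edgeR adjusted p = 0.284), with GC offsets, at 2.30 (edgeR adjusted p = 0.0821), and without any 1 of GF ICH day 3 replicates 1 and 3, SPF ICH day 3 replicates 1 and 3, or SPF ICH day 7 replicate 1 (highest edgeR adjusted p = 0.0662).

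Markers of other leukocytes are set beside Anxa1 here. The group highest in Anxa1, GF ICH day 7, also had the highest summed monocyte markers, at 481 to 1877 CPM over 8 genes, none of them at 0. Its dendritic cell markers summed to 129 to 578 CPM over 6 genes, with Flt3 at 0, against 1.62 to 55.5 CPM in the 9 shams, with Clec9a at 0. GF sham replicate 1 is among the 7 libraries with few detected genes. Its monocyte markers summed to 615 CPM and its dendritic cell markers to 3.63 CPM, with Anxa1 at 0.443 CPM. In ABX ICH day 7 libraries the monocyte markers summed to 14.9, 273 and 814 CPM, with Anxa1 at 1.42, 73.2 and 107 CPM. The receptors of annexin A1 were near 0: Fpr1 was listed at 0 in all 9 ICH day 3 libraries and reached 25.4 CPM in 1 ICH day 7 library and 3.28 CPM in sham, and Fpr2 stayed at or below 3.91 CPM throughout. Of the pair only Fpr2 passed the filter, and edgeR, DESeq2 and limma voom called it in none of the averaged comparisons (0 at an unadjusted p under 0.05). The part of these cells in the Anxa1 level was not tested.

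**Figure D3:**
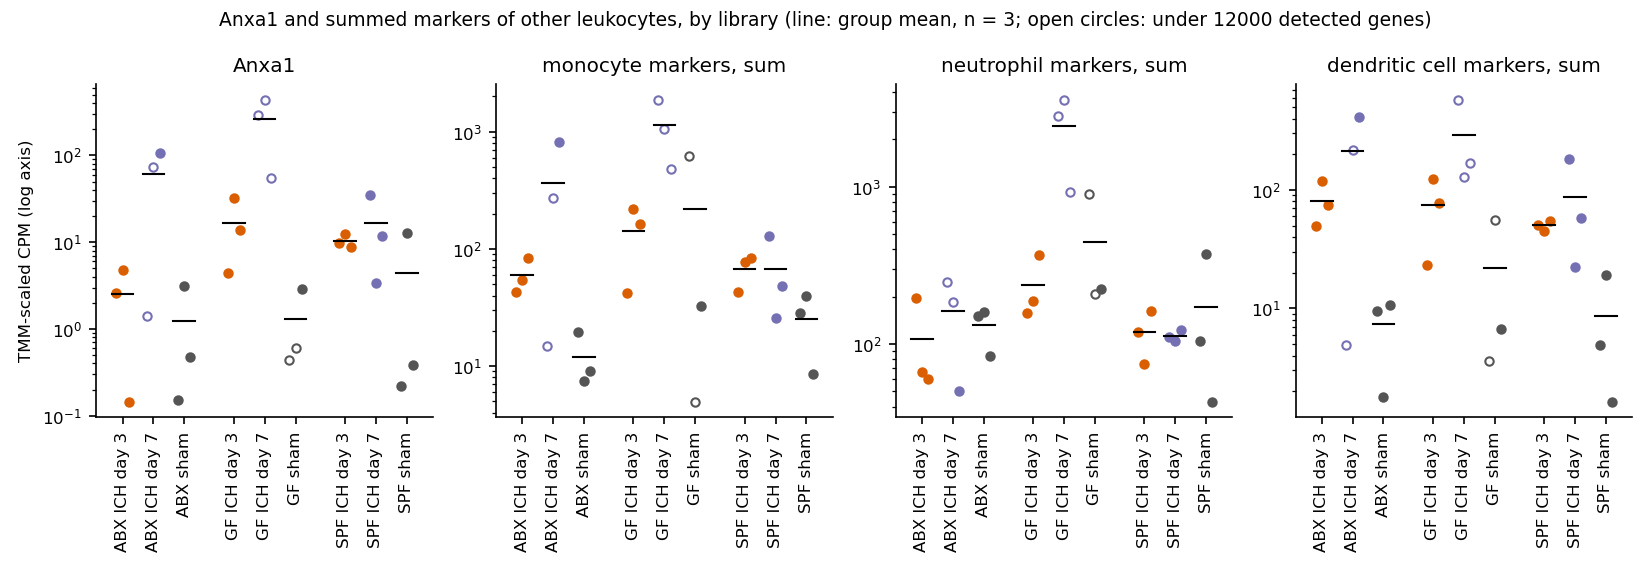
TMM-scaled CPM (log axis) of Anxa1 and of the summed monocyte, neutrophil and dendritic cell markers in the 27 libraries; lines are group means of 3 libraries and open circles are libraries with under 12000 detected genes. GF ICH day 7 has the highest group mean in all 4 panels. GF sham replicate 1, an open circle, has monocyte markers of 615 CPM with Anxa1 at 0.443 CPM. ABX ICH day 7 libraries have monocyte markers of 14.9, 273 and 814 CPM with Anxa1 at 1.42, 73.2 and 107 CPM.

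Anxa3, Anxa4 and Anxa5 were higher than in sham at day 7 and did not pass at day 3. Anxa3, an annexin of myeloid cells (ENSMUSG00000029484, chr5:96793339-96845966, plus strand), held 607 to 1059 CPM in ICH day 3, 870 to 2752 CPM in ICH day 7 and 462.5 to 1203 CPM in sham libraries. Its day 3 and sham ranges nearly coincided, with a log2 fold change of −0.01 ± 0.21 (edgeR adjusted p = 1.0). At day 7 it was 1.04 ± 0.21 log2 units above sham (edgeR adjusted p = 0.00203) and 1.05 ± 0.21 above day 3 (edgeR adjusted p = 0.00199). At day 7 Anxa3 held 2752, 1377 and 2487 CPM in ABX mice, 2138, 2157 and 1501 CPM in GF mice, and 1415, 941 and 870 CPM in SPF mice. All GF libraries and 2 of 3 ABX libraries lay above the highest SPF library. For 7.19% of all genes all 3 GF libraries lay above all 3 SPF libraries at day 7. Over ABX and SPF mice alone Anxa3 was 0.88 log2 units above sham and did not pass (edgeR adjusted p = 0.124), and 0.86 above day 3 (edgeR adjusted p = 0.198). The difference between GF and SPF mice in the day 7 response, 0.93 ± 0.51, did not pass (edgeR adjusted p = 0.255), nor did that between ABX and SPF mice, 0.85 ± 0.51 (edgeR adjusted p = 0.451).

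Anxa4, which binds membranes of secretory and epithelial cells (ENSMUSG00000029994, chr6:86736840-86793584, minus strand), held 1.47 to 400.1 CPM in ICH day 7 libraries, with a median of 145 CPM, against 1.05 to 55.8 CPM in sham, with a median of 31.5 CPM. GF libraries stood highest at 217, 315 and 400.1 CPM, and ABX replicate 1 lowest. It was 2.05 ± 0.60 log2 units higher at day 7 (edgeR adjusted p = 0.022). The call ended over ABX and SPF mice alone, at 1.27 log2 units (edgeR adjusted p = 0.335), and without SPF ICH day 7 replicate 1, at 1.94 (edgeR adjusted p = 0.0531). At day 3 it was 1.03 ± 0.58 log2 units from sham and did not pass (edgeR adjusted p = 0.541).

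Anxa5 encodes annexin A5, known for binding phosphatidylserine on dying cells (ENSMUSG00000027712, chr3:36448923-36475894, minus strand). ICH day 3 libraries held 193 to 398 CPM, with a median of 263 CPM, and ICH day 7 libraries 189 to 840.1 CPM, with a median of 442 CPM. Sham libraries held 62.2 to 127 CPM apart from GF replicate 1, which held 724.5 CPM and is one of the 7 with few detected genes. Outside that library, every ICH library lay above every sham library. Anxa5 was 1.88 ± 0.39 log2 units higher at day 7 (edgeR adjusted p = 0.00292), a call that every alternative kept. At day 3 it was 1.20 ± 0.38 log2 units from sham and did not pass (edgeR adjusted p = 0.136). Without GF sham replicate 1 alone it passed at day 3, at 1.88 log2 units (edgeR adjusted p = 0.00038). Without the 7 libraries both Anxa5, at 1.92, and Lgals9, at 0.86, passed at day 3 (edgeR adjusted p = 0.00112 and 0.00231), so that 5 of the 9 were then called.

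Neither Lgals9 nor Lgals3bp passed in the averaged comparisons, and their log2 fold changes at day 7 against sham were below 0 in GF mice alone. Galectin-9, encoded by Lgals9, has paired carbohydrate-binding domains and is a ligand of TIM-3 (ENSMUSG00000001123, chr11:78962974-78984946, minus strand). At day 3 its level was within a narrow band, 485 to 744 CPM in 9 ICH libraries, and in sham it was 290.2 to 389 CPM apart from GF replicate 1, at 1822 CPM. Outside that library, every ICH day 3 library lay above every sham library. At day 7 Lgals9 held 1213, 210.1 and 489 CPM in ABX mice, 160.2, 139 and 2.73 CPM in GF mice, and 667, 462 and 485 CPM in SPF mice. The GF day 7 libraries were the 3 lowest of all 27. For 24.4% of all genes the 3 GF libraries lay below the 3 SPF libraries at day 7. Averaged over the conditions the log2 fold change was 0.48 ± 0.46 at day 3 (edgeR adjusted p = 0.879) and −0.47 ± 0.46 at day 7 (edgeR adjusted p = 0.516), and over ABX and SPF mice alone the day 7 value turned to 0.81.

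Lgals3bp encodes a secreted scavenger-receptor-domain glycoprotein that binds galectin-3 and is interferon-inducible (ENSMUSG00000033880, chr11:118392751-118402092, minus strand). Its level was 189 to 920.1 CPM in the 9 ICH day 3 libraries, with a median of 463 CPM, against 31.1 to 548 CPM in sham, with a median of 144 CPM. At day 7 Lgals3bp held 509.9, 220.2 and 346 CPM in ABX mice, 122, 3.20 and 94.8 CPM in GF mice, and 479, 1052 and 722 CPM in SPF mice. All 3 GF libraries lay below all 3 SPF libraries at day 7, a separation that 24.4% of all genes showed downward and 7.19% upward. The averaged log2 fold change against sham was 1.69 ± 0.51 at day 3 (edgeR adjusted p = 0.113) and 0.78 ± 0.50 at day 7 (edgeR adjusted p = 0.281). It passed at day 3 by limma voom, at 2.13 (adjusted p = 0.00376), and at day 7 with GC offsets, at 1.58 (edgeR adjusted p = 0.0228).

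Within single conditions, calls at day 3 were none, and the genes whose 3 ICH libraries all lay above their 3 sham libraries were 5 of 9 in ABX, 5 of 9 in GF and 7 of 9 in SPF mice. Over all genes that upward separation held for 9.74% in ABX, 10.8% in GF and 9.18% in SPF mice. None of the 9 was separated downward, as 10.1%, 2.98% and 6.98% of all genes were in ABX, GF and SPF mice. In ABX mice edgeR called 0 of 9 at day 3, and 0.125% of all genes. At an unadjusted p under 0.05 there were 4 of the 9 and 1453 of all 17573 genes. DESeq2 called 2 of the 9 and limma voom 3. In GF mice edgeR called 0 of 9, and 0.00569% of all genes. Unadjusted there were 3 of the 9 and 929 of all genes, and DESeq2 called 2 and limma voom 0. In SPF mice edgeR called 0 of 9, and 0.102% of all genes. Unadjusted there were 5 of the 9 and 1276 of all genes, and DESeq2 called 3 and limma voom 4. Shares of all genes called by DESeq2 and limma voom are not given here. Lgals3 and Anxa2 were the genes that DESeq2 called in all 3 conditions. Their log2 fold changes at day 3 were 4.06 ± 1.01 and 5.00 ± 1.43 in ABX mice, 5.38 ± 1.08 and 5.62 ± 1.47 in GF mice, and 4.48 ± 1.03 and 5.77 ± 1.48 in SPF mice.

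At day 7 in ABX mice, Lgals3 and Anxa5 passed, 2 of 9 and both higher, where 0.945% of all genes did, 0.734% higher and 0.211% lower. Lgals3 was 4.32 ± 1.02 log2 units above sham (edgeR adjusted p = 0.0409), with 257, 391 and 368 CPM in ICH against 2.95, 39.9 and 7.89 CPM in sham libraries. Anxa5 was 3.23 ± 0.71 above sham (edgeR adjusted p = 0.026), with 834, 840.1 and 584 CPM in ICH against 79.9, 92.5 and 68.0 CPM in sham libraries. These gaps were wide, yet both calls ended with DESeq2 size factors, with no filter on low counts, and without ABX ICH day 7 replicate 1 or 2, ABX sham replicate 1 or ABX sham replicate 3, that of Lgals3 also with the replicate block (edgeR adjusted p = 0.0552), and that of Anxa5 also without ABX sham replicate 2 (highest edgeR adjusted p = 0.243 for Lgals3 and 0.192 for Anxa5). In SPF mice none of the 9 passed at day 7 by edgeR, where 0.0797% of all genes passed. At an unadjusted p under 0.05 there were 5 of the 9 and 880 of all 17573 genes. DESeq2 and limma voom called 2 of the 9 each. All 3 SPF ICH day 7 libraries lay above all 3 sham libraries for 6 of the 9, a separation 5.94% of all genes showed upward and 4.62% downward.

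At day 7 in GF mice, 6 of 9 passed, 5 higher and 1 lower, where 14.4% of all genes passed, 1.7% higher and 12.7% lower, and the median over all genes was −2.10. The genes that rose were Anxa1, at 7.65 ± 2.01 log2 units, Anxa2 at 4.56 ± 1.40, Anxa4 at 3.61 ± 1.11, Lgals3 at 3.53 ± 0.98 and Anxa3 at 1.38 ± 0.36 (edgeR adjusted p = 0.0132, 0.0309, 0.0313, 0.0188 and 0.0136). Lgals9 fell by 3.04 ± 0.85 (edgeR adjusted p = 0.0191), with 160.2, 139 and 2.73 CPM in ICH against 1822, 294 and 363 CPM in sham libraries. The fall of Lgals9 did not hold without GF sham replicate 1, at −1.71 (edgeR adjusted p = 0.154), with GC offsets, at −2.01 (edgeR adjusted p = 0.104), or by limma voom (adjusted p = 0.0738). GC offsets also ended the calls of Anxa3, at 0.97, and Anxa4, at 2.89 (edgeR adjusted p = 0.0747 and 0.0742), and put Lgals3 at 5.51. Limma voom ended those of Lgals3, Anxa1 and Anxa2 (adjusted p = 0.269, 0.0529 and 0.58), with Anxa2 at 3.08, and DESeq2 that of Anxa3, at 0.73 (adjusted p = 0.282). Without GF sham replicate 1, 3 of the 9 were called, and without GF sham replicate 2, 2 were. The value of Lgals3 was 5.81 without GF sham replicate 3 (edgeR adjusted p = 0.00168). Calls ended for Lgals3 without either GF sham replicate 1 or 2, for Anxa2 without either or without GF ICH day 7 replicate 1 (2.70, edgeR adjusted p = 0.182), for Anxa3 without GF sham replicate 2 or 3, and for Anxa4 without GF sham replicate 1 or 3 or GF ICH day 7 replicate 3. All 3 ICH libraries of this comparison are among the 7 with few detected genes, so no value without those 7 exists. Their mitochondrial share of counts was 3.69 to 6.45%, against 1.17 to 1.48% in GF sham, and its part was not tested.

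**Figure D4:**
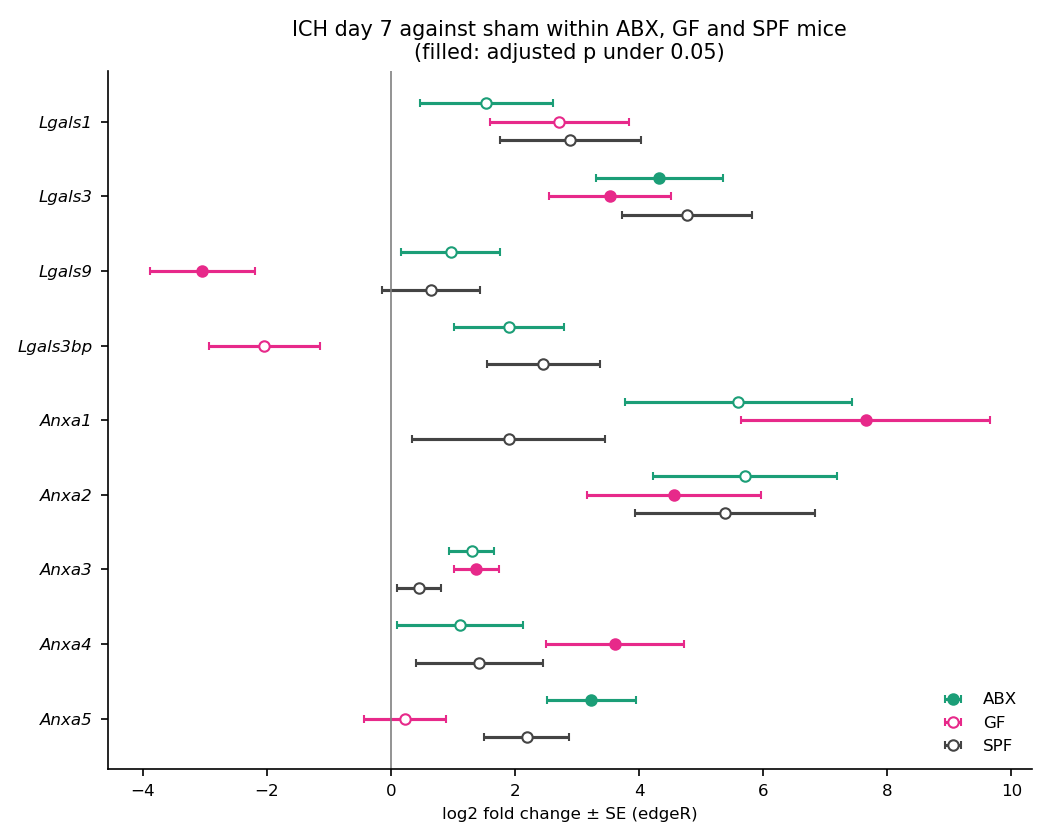
Log2 fold change ± SE (x axis, edgeR) of each gene at ICH day 7 against sham within ABX, GF and SPF mice; filled points passed an adjusted p of 0.05. Lgals9 and Lgals3bp lie below 0 in GF mice, at −3.04 and −2.04, and above 0 in ABX and SPF mice.

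GF and SPF mice were compared directly at day 7, where Lgals3bp was the 1 gene of 9 that passed and 12.9% of all genes did, 1.08% higher and 11.8% lower. The log2 fold change of Lgals3bp, GF over SPF, was −3.35 ± 0.94 (edgeR adjusted p = 0.0233), and Lgals9, at −2.42 ± 0.83, did not pass (edgeR adjusted p = 0.0554). The median over all genes in this comparison was −1.56. The call of Lgals3bp ended without GF ICH day 7 replicate 3 or SPF ICH day 7 replicate 2 (highest edgeR adjusted p = 0.0635) and with offsets for GC content, at −1.79 (edgeR adjusted p = 0.138). Lgals3bp has the highest GC content of the 9 transcripts, 55.8%, and Anxa1 the lowest, 43.6%. The difference between GF and SPF mice in the response to ICH at day 7 was tested too, and passed for 1 of 9, Lgals3bp at −4.50 ± 1.27 (edgeR adjusted p = 0.0359), where 7.04% of all genes passed, 0.285% higher and 6.76% lower. The median of that difference over all genes was −1.81. The value of Lgals3bp by condition was −2.04 ± 0.89 log2 units in GF mice and 2.46 ± 0.91 in SPF mice. Over all genes the medians were −2.10 in GF mice and −0.03 in SPF mice. With the GC offsets the difference of Lgals3bp was −2.31 and did not pass (edgeR adjusted p = 0.214), and the part of GC content in it was not tested further.

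No difference of ABX or GF from SPF mice passed for any of the 9 genes in sham or at day 3. In sham, edgeR called 0 for ABX against SPF, with 0 at an unadjusted p under 0.05, and 0 for GF against SPF, with 1 (Anxa5, in which GF replicate 1 stood apart), where 0.0% and 0.00569% of all genes passed. At day 3 it called 0 in both, with 0 unadjusted, and 0.0% of all genes passed. At day 7, ABX against SPF gave 0, with 1 unadjusted (Anxa3, 1.04 ± 0.36), where 0.0854% of all genes passed. The other 3 tests of a difference in response gave 0, with 0 unadjusted for ABX at day 3 and at day 7 and 1 for GF at day 3 (Anxa5), and 0.0% of all genes passed. DESeq2 and limma voom also called 0 in each of these. With 3 libraries a group the precision differed by gene: the SE of ABX against SPF at day 7 was 0.36 for Anxa3 and 1.22 for Anxa2.

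Between day 7 and day 3, averaged over conditions, 2 of 9 passed, Anxa1 and Anxa3, where 20.1% of all genes did, 3.34% higher and 16.8% lower, and the median of all genes was −1.17. In GF mice 3 of 9 passed, where 15.3% of all genes did, 1.83% higher and 13.4% lower: Anxa3 was 1.44 ± 0.36 log2 units higher (edgeR adjusted p = 0.0111), and Lgals3bp and Lgals9 were −2.88 ± 0.92 and −2.78 ± 0.84 (edgeR adjusted p = 0.0377 and 0.0289). The median of all genes in GF mice was −2.49, near the values of Lgals3bp and Lgals9. The call of Lgals3bp ended when any 1 of the 6 libraries was left out, and that of Lgals9 without any 1 of the 3 GF ICH day 3 libraries (highest edgeR adjusted p = 0.0851 and 0.0547). With GC offsets Lgals3bp was −0.85 and Lgals9 −1.56, and neither passed (edgeR adjusted p = 0.449 and 0.179). The call of Anxa3 ended without GF ICH day 3 replicate 3 (edgeR adjusted p = 0.0507), under the scaling of DESeq2, at 1.22 (edgeR adjusted p = 0.063), and where low counts were not filtered (edgeR adjusted p = 0.0512). In ABX mice edgeR called 0 of 9, where 0.728% of all genes passed. At an unadjusted p under 0.05 there were 2 of the 9 and 3663 of all 17573 genes. DESeq2 called 2 of the 9 and limma voom 1. In SPF mice edgeR called 0, with 0 unadjusted and 0 by either other tool, where 0.0% of all genes passed by edgeR.

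Per kilobase of exon, the 9 genes spanned a wide range in sham. Lgals9 averaged 233 ± 233 CPM per kilobase and Anxa3 222 ± 69.5 (SD, n = 9 libraries). Anxa5 followed at 85.4 ± 121, Lgals3bp at 62.6 ± 55.7, Lgals1 at 29.3 ± 29.9, Anxa4 at 7.56 ± 3.61 and Lgals3 at 7.42 ± 7.89. Anxa2, at 1.10 ± 0.847, and Anxa1, at 0.802 ± 1.40, were lowest. GF sham replicate 1 held 853 CPM per kilobase of Lgals9 and 408 of Anxa5. The other sham libraries held 136 to 182 of Lgals9 and 35.0 to 71.5 of Anxa5. The places of both genes in this order rest on GF sham replicate 1. The only neighbours in this order whose means lay further apart than both SDs were Anxa3 and Anxa5. At ICH day 7 the order per kilobase was Anxa3 at 477 ± 184, Anxa5 at 279 ± 141, Lgals9 at 199 ± 171, Lgals1 at 148 ± 97.4, Lgals3 at 141 ± 68.4, Lgals3bp at 138.5 ± 118.5, Anxa2 at 43.6 ± 43.3, Anxa1 at 38.9 ± 52.3 and Anxa4 at 36.2 ± 27.01. The means of Lgals3, Lgals1, Lgals3bp and Lgals9 then lay within their SDs of each other, and in sham the mean of Lgals3 was below the other 3.

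Other members of both families were not called by edgeR. The table holds 6 further galectin genes, of which 3 were tested, and edgeR called 0 in each averaged comparison, as did DESeq2 and limma voom, with 1 at an unadjusted p under 0.05 at day 3 and 0 at day 7. Lgals8, a galectin that senses damaged vesicles, averaged 84.5 ± 23.6 CPM in ICH day 3, 168 ± 170 CPM in ICH day 7 and 154 ± 137 CPM in sham libraries (SD, n = 9 each). Of 7 further annexins 4 were tested. Averaged over conditions, edgeR called 0 against sham at either day, as did DESeq2 and limma voom, with 0 at an unadjusted p under 0.05. Between day 7 and day 3, averaged, edgeR called 0 of them, with 1 unadjusted, and DESeq2 and limma voom called 2 each. In ABX mice at day 7 edgeR called 0 against sham, with 3 of the 4 unadjusted and 3776 of all 17573 genes. Their median there was −3.43, against −0.79 over all genes. Against day 3 in ABX mice edgeR again called 0, with 3 unadjusted and a median of −4.17, against −0.33 over all genes. Anxa7 averaged 45.5 ± 15.2, 49.0 ± 67.0 and 20.9 ± 13.2 CPM, and Anxa6 42.5 ± 12.6, 26.9 ± 36.0 and 25.0 ± 23.4 CPM, in ICH day 3, ICH day 7 and sham libraries.

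Of 6 galectin-binding proteins tested, 1 rose and 1 fell at day 7, where 3.72% of all genes were called higher and 16.5% lower. Lamp2, a lysosomal membrane protein, rose by 1.59 ± 0.20 log2 units at day 7 against sham (edgeR adjusted p = 1.97e-05), and Trem2, the microglial lipid receptor, fell by 0.68 ± 0.24 (edgeR adjusted p = 0.0465). Lamp2 held 848 to 5427 CPM in ICH day 7 libraries against 533 to 1039 CPM in sham libraries. At day 3 edgeR called 0 of the 6, with 2 at an unadjusted p under 0.05, 1 by DESeq2 and 3 by limma voom. Lamp2 and Havcr2, which encodes the galectin-9 receptor TIM-3, were higher at day 7 than at day 3, by 1.63 ± 0.20 and 1.06 ± 0.23 (edgeR adjusted p = 1.94e-05 and 0.00428). Both of these calls ended with offsets for GC content, at 0.50 and 0.50 (edgeR adjusted p = 0.0522 and 0.129), and that of Havcr2 also over ABX and SPF mice alone (edgeR adjusted p = 0.163). Against sham, Lamp2 was 0.77 with those offsets and kept its call. The fall of Trem2 did not hold over ABX and SPF mice alone, at −0.20 (edgeR adjusted p = 0.778), with GC offsets, at −0.36 (edgeR adjusted p = 0.298), with no filter on low counts (edgeR adjusted p = 0.0918), by limma voom (adjusted p = 0.0841), or without any 1 of 15 of the 18 libraries.

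Of 9 glycosyltransferases that build galectin ligands, 5 fell at day 7 against sham and none rose, where 16.5% of all genes were called lower and 3.72% higher, and at day 3 edgeR, DESeq2 and limma voom called 0, with 0 at an unadjusted p under 0.05. Mgat1, which starts the branching of N-linked sugars, fell by 5.17 ± 0.71 log2 units (edgeR adjusted p = 5.36e-05), to 0 to 87.1 CPM in ICH day 7 against 88.75 to 385 CPM in sham libraries. Mgat5, which makes the branch galectin-3 favours, fell by 3.85 ± 0.90, and St6gal1, which caps galactose with sialic acid, fell by 3.06 ± 0.84 (edgeR adjusted p = 0.00617 and 0.0164). Mgat4b and Mgat2 fell by 3.50 ± 1.16 and 2.21 ± 0.79 (edgeR adjusted p = 0.0372 and 0.049), and these calls ended without any 1 of 13 and of 16 of the 18 libraries, with the replicate block (edgeR adjusted p = 0.0553 and 0.0658), with no filter on low counts and with GC offsets. Limma voom did not call Mgat4b or St6gal1 (adjusted p = 0.141 and 0.069) and put Mgat2 at −3.47. Without GF ICH day 7 replicate 1 Mgat2 was −4.44. The list's median was −2.22 at day 7, against −1.24 over all genes. Over ABX and SPF mice alone none of the 5 passed, with Mgat1 at −3.24 (edgeR adjusted p = 0.0586), Mgat4b at −1.26 (edgeR adjusted p = 0.632) and St6gal1 at −0.62 (edgeR adjusted p = 0.791). Without GF sham replicate 3 St6gal1 was −1.28 (edgeR adjusted p = 0.221).

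Among 7 tested genes of phosphatidylserine bridging and its receptors, which act on the same lipid as Anxa5, 1 rose and 2 fell at day 7, where 20.2% of all genes passed, 3.72% higher and 16.5% lower. Pros1, protein S, rose by 0.88 ± 0.25 log2 units, and Gas6, the other bridging ligand of the TAM receptors, fell by 3.99 ± 0.80 (edgeR adjusted p = 0.0195 and 0.00228). Itgb5, an integrin chain, fell by 1.60 ± 0.52 (edgeR adjusted p = 0.0347), a call that ended without any 1 of 11 of the 18 libraries, with GC offsets, at −0.73 (edgeR adjusted p = 0.283), and by limma voom (adjusted p = 0.0909). That of Pros1 ended with GC offsets, at 0.31 (edgeR adjusted p = 0.475), with DESeq2 size factors, at 0.62 (edgeR adjusted p = 0.16), by DESeq2 (adjusted p = 0.176) and with no filter on low counts (edgeR adjusted p = 0.0605), and Gas6 was −6.60 without GF ICH day 7 replicate 2. Pros1 averaged 1093 ± 629 CPM in ICH day 7 and 528 ± 260 CPM in sham libraries, and Gas6 averaged 36.1 ± 51.5 CPM in ICH day 7 and 163 ± 262 CPM in sham libraries (SD, n = 9 each). None of the 3 passed over ABX and SPF mice alone, where Gas6 was −1.21 and Itgb5 −0.58 (edgeR adjusted p = 0.461 and 0.653). At day 3 edgeR called 0 of the 7, with 0 at an unadjusted p under 0.05, 0 by DESeq2 and 2 by limma voom.

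The patterns most like each gene, by Pearson correlation of log2 CPM over the 27 libraries among 7010 genes, are given as a description of libraries that share depth and base composition. Lgals3 was most like Ifitm2 (r = 0.953), an interferon-induced membrane protein, then Fxyd5 (0.929) and Wfdc17 (0.881). Anxa2 was most like Pbk (0.926) and Nusap1 (0.886), genes of dividing cells, and Ifit1 (0.875). Lgals1 was most like Gpx1 (0.886), Capg (0.86) and Dnajc9 (0.837). Anxa1 was most like Cd209a (0.828), Slamf7 (0.795) and Plac8 (0.791), of which Cd209a is in the dendritic cell and Plac8 in the monocyte marker list. Anxa3 was most like Spcs2 (0.927) and the microglial tetraspanin gene Cd9 (0.92), Anxa4 like the integrin gene Itgb1 (0.944), and Anxa5 like Gng12 (0.867) and the chemokine gene Ccl12 (0.867). Lgals9 was most like Ntpcr (0.957), and Lgals3bp like the complement receptor gene C5ar1 (0.844).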

How the data were processed

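Microglia of 27 libraries (9 groups of 3) were profiled with a low-input full-length kit, SMART-Seq v4, per the labels' protocols. Tools listed in the submitters' processing notes are HISAT2 2.0.4, cutadapt 1.9, edgeR (no version given) and StringTie 1.3.4d, with the build mm10. The annotation release, strand setting and counting of mates are not given in the sources used here. The authors deposited whole-number counts per gene, per the file headers and the values. GENCODE M21 gave symbols to 52073 of 56691 identifiers, and the other 4618 hold 1.27% of counts.

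Genes passing filterByExpr with the 9 groups were kept: 17573, with 99.9% of counts, while 39118 were set aside. Libraries were scaled by TMM (factors 0.476 to 1.31). A robust quasi-likelihood fit of edgeR 4.0.16 (R 4.3.3) over the 9 group means gave 22 comparisons, adjusted by Benjamini-Hochberg at 0.05. The SE was taken from the F statistic, and the common biological coefficient of variation was 1.54. The fit was tested on simulated data. CPM per kilobase used exonic length. The genes and lists were chosen with earlier results of these data known. Genes outside the 9 were named by a rule: from each list up to 4 genes under 0.05, taken by lowest adjusted p, in the averaged comparisons, otherwise the 2 with the highest CPM, and the 3 protein-coding genes of at least 10 CPM most correlated with each of the 9 on log2 CPM (prior count 2). Genes overlapping the 9 in the annotation held almost no counts.

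Alternatives were DESeq2 1.42.0, limma 3.58.1 voom (quality-weighted), edgeR with size factors of DESeq2, a replicate block, all genes kept whatever their counts, leaving out libraries under 12000 detected genes or each library in turn, and averages over ABX and SPF mice. Offsets for GC content (per library, a spline with 6 df over genes of at least 100 CPM) were added after the data were seen.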

Additional observations from a re-analysis of the deposited data

Results flagged for a closer look

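The response of Lgals3bp to ICH at day 7 differed between GF and SPF mice by −4.50 ± 1.27 log2 units in the test of the difference itself (edgeR adjusted p = 0.0359). The median of that difference over all genes was −1.81. GF libraries held 122, 3.20 and 94.8 CPM in ICH against 548, 154 and 205 CPM in sham, and SPF libraries held 479, 1052 and 722 CPM in ICH against 95.3, 283.5 and 31.1 CPM in sham. The call ended in 6 of the 12 fits that leave out 1 library, at −3.75 to −4.72, and it ended with GC offsets at −2.31. Those libraries are GF ICH day 7 replicate 3, GF sham replicate 1, SPF ICH day 7 replicates 2 and 3, and SPF sham replicates 1 and 3.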

How the results depend on the processing

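The calls of Lgals3 and Anxa2 at day 3 and at day 7, and of Anxa5 at day 7, all averaged over conditions, held under every alternative that gave a value. Same-numbered libraries did not deviate together (mean r = 0.005 over 108 pairs, −0.183 to 0.181, 13 of 27 libraries closest to their own number), so the replicate block pairs nothing. With it the count at day 7 in ABX mice was 1 and that of GF against SPF mice at day 7 was 2. Counts of the 9 genes called moved as follows. For day 3 averaged (3 in the fit reported) they were 6 by limma voom and 5 without the libraries under 12000 detected genes, and 2, with Lgals1 lost, under the replicate block, no filter, GC offsets and the average over ABX and SPF. Leaving out 1 library gave 2 to 3 there, with Lgals1 lost in 17 of 18 fits. For day 3 in ABX, GF and SPF mice (0 each) DESeq2 gave 2, 2 and 3, limma voom 3, 0 and 4, and the fit without those libraries 3, 0 and 4, and leaving out 1 library gave 0 to 1 in GF mice. For day 7 averaged (7) the average over ABX and SPF gave 3. For day 7 in SPF mice (0) they were 2 by DESeq2, 2 by limma voom and 3 without those libraries. For day 7 in ABX mice (2) they were 4 by DESeq2, by limma voom and without those libraries, and 0 with DESeq2 size factors or no filter on low counts, and 0 to 2 leaving out 1 library. For day 7 in GF mice (6) limma voom gave 2, and leaving out 1 library 2 to 6. For day 7 against day 3, averaged (2), the average over ABX and SPF gave 0, GC offsets 1 and leaving out 1 library 1 to 2. In ABX mice (0) DESeq2 gave 2, limma voom 1, the fit without those libraries 1 and leaving out 1 library 0 to 1. In GF mice (3) limma voom gave 5, GC offsets 1 and leaving out 1 library 0 to 2. For GF against SPF mice at day 7 (1) DESeq2 gave 3, limma voom 5, GC offsets 0 and leaving out 1 library 0 to 1. For the difference in response between GF and SPF mice at day 7 (1) DESeq2 gave 3, limma voom 2, DESeq2 size factors 2, GC offsets 0 and leaving out 1 library 0 to 2. Values that turned sign were all uncalled: Anxa3 at day 3 (0.064 by limma voom, 0.004 with no filter, 0.11 without those libraries, 0.015 over ABX and SPF, 0.083 with GC offsets, −0.093 to 0.17 leaving out 1 library) and Lgals9 at day 7 (0.81 over ABX and SPF). Against day 3, day 7 values turned for Lgals1 (0.99 with GC offsets, −0.34 to 0.10 leaving out 1 library), Lgals3 (0.28 over ABX and SPF, 0.76 with GC offsets), Lgals3bp (0.07 and 0.25) and Anxa2 (0.16 and 0.32). The cause was not tested. DESeq2 size factors shifted the median of all genes by −0.26 at day 7 averaged and by −0.53 in GF mice, and ended the call of Anxa3 there at 0.73 (edgeR adjusted p = 0.221). All 3 GF ICH day 7 libraries were under the 12000-gene limit, so comparisons with that group have no value without those libraries. With 3 libraries a group, precision is given by the SE beside each value.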
